A study of Mus musculus with 12 samples.

Results

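The complement genes measured in these mouse mammary tumors comprised 9 genes, picked by symbol from the 750 genes of the deposited table. C1qa, C1qb, C1ra, C2 and C4b belong to the classical pathway, Cfb and Cfd to the alternative pathway, C3 to both, and C3ar1 is the receptor of a C3 fragment. All 9 were present and all 9 passed the filter on low values (a normalized count of at least 20 in at least 3 tumors), as did 689 of the 750 genes. The choice rests on gene symbols, with no threshold on values, and was made with earlier results of these data known. Cfb was, however, among the genes that the study itself had selected from these tumors for the combination, so its direction there is not independent evidence.

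Tumors of the K14-Cre;Brcaf/fTrp53f/f model (the floxed genes are Brca1 and Trp53), in which a keratin-14 promoter drives Cre in epithelium, had been grafted into mammary fat pads of syngeneic FVB/129P2 females, and every group carries this genotype. Treatment started at 150 to 300 mm3. Vehicle mice received DMSO in saline by intraperitoneal injection and saline in the tumor, ADU-S100 mice 50 μg of this STING agonist in 1 intratumoral injection of 40 μl, olaparib mice 50 mg/kg of this PARP inhibitor daily, and combination mice both agents. ADU-S100 mice also received intraperitoneal DMSO, and olaparib mice intratumoral saline, so every tumor was injected. Tumors were taken at 3 days, with 3 tumors in each of 4 groups, and 100 ng of total RNA was hybridized to the nCounter immune panel, on which color-coded probes are counted without amplification. The graft is bulk tissue with host cells in it, so fewer cells of a type and less RNA per cell cannot be told apart in any value below. The labels do not say whether the 12 grafts came from 1 donor tumor.

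Complement is a cascade of plasma and tissue proteins that tags surfaces for uptake by phagocytes and can lyse membranes. In the classical pathway C1q binds its target and the attached proteases C1r and C1s cut C4 and C2, which together form an enzyme that cleaves C3. In the alternative pathway factor B binds cleaved C3 and is cut by factor D, which gives a second enzyme for C3. Hepatocytes supply most of these proteins to plasma, whereas C1q comes mainly from macrophages and dendritic cells, and factor D was first known as the adipocyte protein adipsin.

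The counts behind the deposited values were estimated from the steps between them, and summed to between 106206 and 1519471 per tumor. Olaparib tumor 1517 stood apart, with the lowest total, the largest normalization factor (1 count was worth 10.5 normalized counts, against 0.589 to 2.85 in the other tumors) and the highest median normalized count (304, against 96.2 to 301). The epithelial markers Epcam, Cdh1 and Muc1 summed to 10802 to 22177 in every tumor. These counts are estimates, since not every tumor passed a separate check of its steps. The lowest count behind any value of the 9 genes was 25, for Cfd in olaparib tumor 1521, and the lowest for Cfb was 31, in olaparib tumor 1517. Probes differ in efficiency, so levels are compared here between tumors and not between genes.

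Cfb, which encodes factor B, was the only 1 of the 9 genes in which every combination tumor exceeded every other tumor. Its normalized counts were 395, 372 and 130.2 in the vehicle tumors, 681, 362 and 205 with ADU-S100, 364, 325 and 486 with olaparib, and 804, 932 and 684 with the combination. The lowest combination tumor (684) barely exceeded ADU-S100 tumor 1506 (681), while the other 8 tumors reached at most 486. Groups were separate in this way for 22 of the 689 genes tested, a background of 3.19%. The 31 counts behind the value of 325 gave an exact 95% Poisson interval of 221 to 461, which covers counting error only. After scaling all tumors to the same median, Cfb in the combination overlapped the olaparib tumors (lowest combination value 9.42 on the log2 scale, highest olaparib value 9.55) and still lay above the ADU-S100 tumors. After quantile normalization it lay above all 9 others again.

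The combination exceeded vehicle in Cfb by 1.58 on the log2 scale (SE 0.54, 95% interval 0.40 to 2.75), a difference that did not pass the threshold (limma, adjusted p = 0.407, unadjusted p = 0.0130). Without vehicle tumor 1536, the lowest of all, the difference was 1.06. Against ADU-S100 it was 1.11 (SE 0.54, limma, adjusted p = 0.531) and against olaparib 1.05 (SE 0.54, limma, adjusted p = 0.594). The difference from ADU-S100 was 0.69 without ADU-S100 tumor 1513 and 1.55 without 1506. With the tumor number series (12 or 15 as the first digits, of unstated meaning) as a block, the differences from vehicle, ADU-S100 and olaparib were 1.38, 0.72 and 0.66. Within the numbers beginning with 12, vehicle tumor 1269 had 395 and the combination tumors 804 and 932. Within those beginning with 15, the vehicle tumors had 372 and 130.2 and the combination tumor 684.

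C3, the protein that factor B binds once it is cleaved, did not share this pattern. Its normalized counts were 2413, 2846 and 1445 with vehicle, 4845, 3798 and 2306 with ADU-S100, 2774, 7283 and 2057 with olaparib, and 1940.2, 2308 and 2317 with the combination. The combination tumors lay within the range of the vehicle tumors, and the highest values were those of single-agent tumors. The combination differed from vehicle by 0.02 (SE 0.51, limma, adjusted p = 0.994), and by -0.18 after median scaling. The ratio of Cfb to C3 within a tumor, which no scaling factor can alter, was 0.414, 0.404 and 0.295 with the combination. In the 9 other tumors it ranged from 0.0446 to 0.236, with a median of 0.131. The ratios of the combination and of the other tumors therefore did not overlap, a description of a pair with 1 gene that the study had selected.

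**Figure D1:**
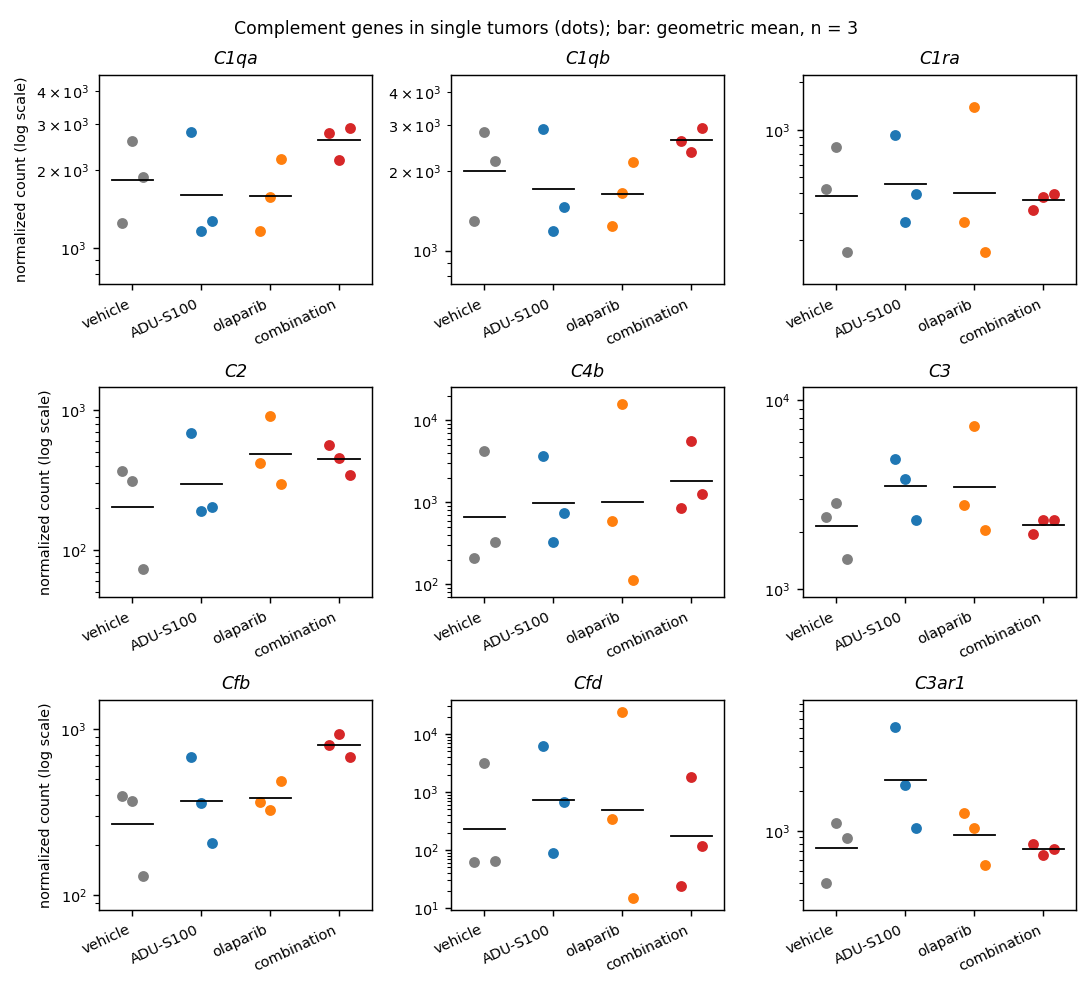
Normalized counts (log scale, a separate range in each panel) of the 9 complement genes by treatment group, with 1 dot per tumor and a bar at the geometric mean of 3 tumors. Cfb in the combination (684 to 932) lies above the other tumors, and Cfd spans 14.7 to 23851.

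C1qa and C1qb encode the A and B chains of C1q, the recognition protein of the classical pathway. C1qa counts were 1255, 2571 and 1869 with vehicle, 2791, 1169 and 1269.8 with ADU-S100, 1165, 1572 and 2203 with olaparib, and 2769.7, 2177 and 2896 with the combination. C1qb counts were 1295, 2837 and 2192, then 2905, 1191 and 1468, then 1237, 1656 and 2175, and 2621, 2367 and 2923 in the same order. All 3 combination tumors were in the upper part of both ranges, but vehicle tumor 1529 and ADU-S100 tumor 1506 were as high. C1qb in the combination lay above every olaparib tumor, whereas C1qa overlapped them. Median scaling and quantile normalization each ended this separation of C1qb, with olaparib tumors up to 11.7 and 11.3 on the log2 scale and the lowest combination tumor at 11.3 and 11.2. Neither chain differed from vehicle beyond the spread between tumors, with 0.51 for C1qa (SE 0.45, limma, adjusted p = 0.949) and 0.39 for C1qb (SE 0.45, limma, adjusted p = 0.981). For C1qa and C1qb these differences were 0.24 and 0.08 without vehicle tumor 1269, and 0.76 and 0.64 without vehicle tumor 1529.

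The C1q chains were among the steadier genes of the panel. Their highest tumor exceeded the lowest by 2.49-fold for C1qa and 2.45-fold for C1qb, and their spread within groups (log2 SD 0.50 and 0.49) was below the median of all genes tested (0.79). The ratio of C1qa to C1qb stayed between 0.853 and 1.06 in the 12 tumors. Their log2 values correlated across the 12 tumors with r = 0.985 and rho = 0.965, each with a permutation p of 1e-05, the smallest that 100000 resamples can give (4e-05 adjusted over 4 pairs of complement genes), and with r = 0.979 without the 2 tumors farthest from the median. The genes most like them over 12 tumors were Ly86, which encodes the MD-1 partner of a receptor on myeloid and B cells (r = 0.920 with C1qa and 0.928 with C1qb), and Cd48, a surface protein of leukocytes (r = 0.859 and 0.858). The summed macrophage markers (11 of 12 listed genes present, Emr1 among them) were 5677 to 16906 with vehicle, 9468 to 22582 with ADU-S100, 8818 to 12104 with olaparib and 10608 to 11139 with the combination, and correlated only weakly with C1qa (r = 0.425).

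C1ra encodes a C1r protease, and the table does not show how well its probe avoids the near-identical C1rb. Its counts were 423, 782 and 169 with vehicle, 920.0 (tumor 1506), 261 and 392 with ADU-S100, 263, 1394 (tumor 1517) and 169 with olaparib, and 310.3, 378 and 391 with the combination. The groups overlapped in every comparison, and the 3 highest values came from 3 different groups. The combination minus vehicle difference was -0.10 (SE 0.80, limma, adjusted p = 0.989).

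C2 encodes the protease of the classical convertase and is the paralog and direct neighbor of Cfb on chromosome 17, with 0 protein-coding genes between them. C2 counts were 369.7, 314 and 73.4 with vehicle, 692, 189 and 204 with ADU-S100, 423, 912 and 295 with olaparib, and 561, 458 and 347 with the combination. Vehicle tumor 1536 was lowest in C2, as it was in Cfb. The combination exceeded vehicle by 1.12 (SE 0.71, limma, adjusted p = 0.781), but by 0.39 without tumor 1536. Olaparib alone exceeded vehicle by 1.24 (SE 0.71, limma, adjusted p = 0.582). The combination and olaparib overlapped in C2 and differed by -0.12 (SE 0.71, 95% interval -1.68 to 1.44).

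Across the 12 tumors C2 and Cfb correlated with r = 0.688 (permutation p = 0.0145, 0.0291 adjusted over the 4 pairs), while rho was 0.504 (permutation p = 0.0992, 0.198 adjusted). Without the 2 tumors farthest from the median C2 value, 1517 and 1536, r was 0.733. The adjusted p was 0.0801 after median scaling (r = 0.59) and 0.124 after quantile normalization (r = 0.52), so the relation passed the threshold on the deposited scale alone. The ratio of C2 to Cfb was 0.491 to 0.699 with the combination and 0.522 to 2.81 in the other tumors, and olaparib tumor 1517 held the highest. Cfb against C3 (r = 0.133, permutation p = 0.679, 0.851 adjusted) and C1qa against C3ar1 (r = 0.0663, permutation p = 0.851, 0.851 adjusted) did not pass the threshold.

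Several of the genes most like C2 and Cfb are known to be induced by interferons. The 3 genes closest to C2 over the 12 tumors were Xaf1, an interferon-induced regulator of apoptosis (r = 0.914), Ddx58 (r = 0.913), which encodes the RNA sensor RIG-I, and Ltf (r = 0.911), which encodes lactoferrin. Among those closest to Cfb were Slamf6 (r = 0.891) and Irgm2 (r = 0.885), an interferon-induced GTPase. Over 15 interferon-stimulated genes, all present, the summed level was 5095 to 29848 with vehicle, 9904 to 43352 with ADU-S100, 20603 to 59232 with olaparib and 37175 to 41230 with the combination. The mean log2 level of these 15 genes, and not their sum, correlated with C2 (r = 0.834) and with Cfb (r = 0.825) as a description over the same 12 tumors. C2 correlated about as closely with the mean log2 level of the epithelial (r = 0.820) and of the T cell markers (r = 0.803), and Cfb less so with both (r = 0.591 and 0.584). The part of these genes in the C2 and Cfb values was not tested.

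C4b encodes C4, which the C1 proteases cut, and lies 5 protein-coding genes from Cfb. Its near-identical neighbor C4a may share the probe, so the gene behind these counts is uncertain. C4b counts were 207, 4210.3 and 332 with vehicle, 3728, 332 and 739 with ADU-S100, 598, 15803 and 111 with olaparib, and 851, 5660 (tumor 1270) and 1268 with the combination. Every group held 1 tumor far above its other 2, and the highest tumor exceeded the lowest by 142-fold (50.8-fold without tumor 1517). The combination minus vehicle difference of 1.46 had an SE of 1.70 and a 95% interval of -2.27 to 5.20 (limma, adjusted p = 0.981). It was 2.80 without vehicle tumor 1529, 0.63 without vehicle tumor 1269 and 0.65 without combination tumor 1270.

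Cfd encodes factor D, the protease that cuts factor B. Its counts were 61.4, 3144 and 63.7 with vehicle, 6101, 90.4 and 673 with ADU-S100, 337, 23851 and 14.7 with olaparib, and 24.3, 1841 and 118 with the combination. The range was 1619-fold, and 414-fold without tumor 1517, and the spread of Cfd within groups (log2 SD 3.80) ranked 2 of 689 genes, with C4b at rank 9 (log2 SD 2.44). The combination minus vehicle difference was -0.40 with an SE of 2.63, and its 95% interval of -6.16 to 5.37 held large differences in both directions (limma, adjusted p = 0.989). Leaving out vehicle tumor 1529 turned it to 1.48, and leaving out combination tumor 1251 also turned it positive.

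The 4 tumors highest in Cfd came 1 from each group, namely olaparib 1517, ADU-S100 1506, vehicle 1529 and combination 1270. The same 4 tumors were the highest in C4b and in Pparg, the nuclear receptor of fat cells and the only 1 of 6 listed adipocyte genes in the table. Pparg counts were 451, 111, 58.0 and 39.6 in these 4 tumors, resting on 43, 39, 39 and 48 counts, and 1.77 to 22.8 in the other tumors. Among all genes tested Pparg was the closest to Cfd (r = 0.953 over 12 tumors), followed by Ccl19, a lymphoid chemokine (r = 0.941), and Cd36, a fatty acid transporter of fat, endothelial and myeloid cells (r = 0.940). These 3 remained at 0.940, 0.912 and 0.919 after median scaling. The summed endothelial markers (5 of 6 listed genes present) were 21137, 5890 and 7071 in tumors 1517, 1506 and 1529, but 1179 in tumor 1270 and 403 to 1590 in the remaining 8. Other summed markers also varied with these genes, with r = 0.837 for B cells and 0.681 for T cells with Cfd (endothelial 0.797), and 0.856 and 0.841 with C4b (endothelial 0.784). The part of any of these cells in the Cfd and C4b values was not tested.

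**Figure D2:**
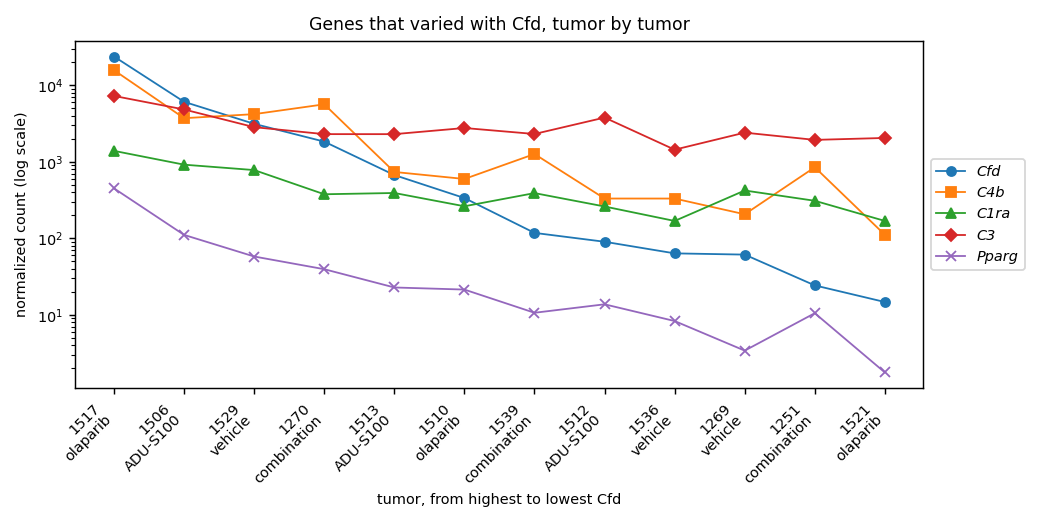
Normalized counts (log scale) of Cfd, C4b, C1ra, C3 and Pparg in the 12 tumors, ordered from the highest to the lowest Cfd, with lines joining values of 1 gene. The first 4 tumors come from 4 different groups and are also the highest 4 in C4b and Pparg, while C3 varies far less.

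Across tumors the 9 genes fell into unequal groups. Of 36 pairs, 6 had r above 0.7 over the 12 tumors, and 2 pairs, C1qa and C1qb with C3, had r below 0 (-0.15 and -0.17). Besides the C1q chains, the close pairs were Cfd with C4b (r = 0.90), Cfd with C1ra (r = 0.87), C4b with C1ra (r = 0.83), C1ra with C3 (r = 0.79) and Cfd with C3 (r = 0.74). The median r of the 36 pairs was 0.347, beside 0.302 over all pairs of genes tested, which share the scaling of each tumor. After median scaling the median was -0.168 for the complement pairs and 0.0414 for all pairs. Cfd with C4b remained at 0.85, Cfd with C1ra was at 0.69 and C4b with C1ra at 0.59, whereas C1ra with C3 dropped to 0.13 and Cfd with C3 to 0.04. The genes closest to C4b (Tgfb3, r = 0.944, then Pparg and Cd3d), to C1ra (Atg7, r = 0.949, then Tlr5 and Cd1d1) and to C3 (Smad3, r = 0.944, then H2-Q2 and Cd96) include several whose likeness depends on the scaling: with median scaling r was 0.270 for Tgfb3, 0.247 for Atg7, 0.343 for Tlr5 (from 0.933) and 0.454 for H2-Q2 (from 0.941), whereas Smad3 remained at 0.808.

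**Figure D3:**
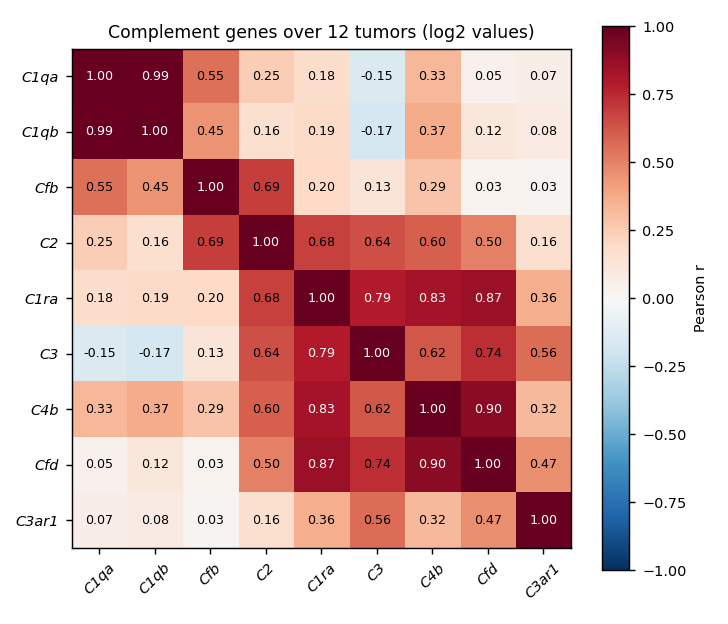
Pearson r between log2 values of the 9 complement genes over 12 tumors, with the value printed in each cell. C1qa and C1qb are at 0.99, C4b and Cfd at 0.90, and the values of C3 with C1ra (0.79) and Cfd (0.74) depend on the deposited scaling.

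Promoters are shown for Cfd and C1ra, which varied together, for C3, which did so on the deposited scale but not after median scaling, and for C1qb, which varied apart from them. RefSeq promoters on GRCm38.p6 were matched for 5 of the 9 genes (C1qb, C1ra, C3, Cfd and C3ar1). No match was found for C1qa, C2, C4b and Cfb. Each line gives the 250 bases before the annotated start, 5′ to 3′ on the strand of the gene, with motif matches in capitals.
Cfd, chr10:79890603-79890852, plus strand: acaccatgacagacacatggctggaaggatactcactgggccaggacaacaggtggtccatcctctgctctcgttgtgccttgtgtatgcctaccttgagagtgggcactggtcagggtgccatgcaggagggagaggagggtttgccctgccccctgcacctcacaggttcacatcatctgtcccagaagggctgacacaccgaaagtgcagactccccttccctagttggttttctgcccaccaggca
C1ra, chr6:124512371-124512620, plus strand: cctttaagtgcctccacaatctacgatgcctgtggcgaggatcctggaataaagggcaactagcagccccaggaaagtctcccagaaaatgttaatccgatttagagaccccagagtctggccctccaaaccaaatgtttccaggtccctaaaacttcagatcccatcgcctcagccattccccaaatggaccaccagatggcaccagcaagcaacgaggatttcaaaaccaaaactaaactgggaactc
C3, chr17:57228137-57228386, minus strand: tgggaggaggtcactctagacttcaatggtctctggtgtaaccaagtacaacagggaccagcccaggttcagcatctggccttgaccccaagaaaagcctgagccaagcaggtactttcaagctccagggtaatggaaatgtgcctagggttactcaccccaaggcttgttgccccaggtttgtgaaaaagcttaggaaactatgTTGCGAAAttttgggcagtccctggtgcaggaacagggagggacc
C1qb, chr4:136886201-136886450, minus strand: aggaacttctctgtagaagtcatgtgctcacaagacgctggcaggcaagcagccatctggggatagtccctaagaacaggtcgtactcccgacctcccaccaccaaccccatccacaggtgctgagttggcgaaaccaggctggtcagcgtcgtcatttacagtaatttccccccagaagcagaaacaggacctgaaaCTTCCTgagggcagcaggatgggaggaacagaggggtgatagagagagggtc
Of 6 motifs searched on both strands, the C/EBP motif TTGCNNAA matched 45 to 38 bases before the C3 start, and the ETS core AGGAAG, read by factors such as PU.1, matched 52 to 47 bases before the C1qb start on the opposite strand. These motifs occur in 9.57% and 29.6% of 32536 promoters of that length. The other 4 motifs were the core of the interferon response element (in 2.98% of promoters), the gamma-activated site (7.04%), the NF-kB site (1.21%) and the TATA box (12.3%), and the windows of Cfd and C1ra held no match to any of the 6. In the C3ar1 window, not shown, the TATA box letters TATAAA matched 235 to 230 bases before the start. These matches describe the letters in the windows only.

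C3ar1 encodes the receptor for C3a, the fragment released from C3, and is carried mainly by myeloid cells. Its counts were 403, 1139 and 885 with vehicle, 6029.9, 2224 and 1044 with ADU-S100, 1368, 1048 and 547 with olaparib, and 799, 661 and 726 with the combination. The 2 highest values were ADU-S100 tumors, and all 3 combination tumors were below all 3 ADU-S100 tumors, which was also seen after median scaling and after quantile normalization. In 20.9% of all genes tested the combination lay below ADU-S100 without overlap. ADU-S100 exceeded vehicle by 1.70 (SE 0.64, limma, adjusted p = 0.809, unadjusted p = 0.0214), with 1 ADU-S100 tumor below the highest vehicle tumor. The combination was 1.73 lower than ADU-S100 (log2 difference -1.73, SE 0.64, limma, adjusted p = 0.492, unadjusted p = 0.0197) and differed from vehicle by -0.03 (SE 0.64, limma, adjusted p = 0.994). Without ADU-S100 tumor 1506, the highest, these differences of 1.70 and -1.73 were 1.04 and -1.07. These comparisons share the ADU-S100 and vehicle tumors and are not independent.

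The interaction subtracts the ADU-S100 difference seen without olaparib from that seen with it, and was -2.05 for C3ar1 (SE 0.90, limma, adjusted p = 0.435, unadjusted p = 0.0438). All genes tested had a median of -0.55 for this term, which was 0.003 after median scaling. Without ADU-S100 tumor 1506 the interaction was -1.38, and with the value of 1 count as a covariate it was -1.06. The ratio of C3ar1 to C1qa within a tumor was 2.16, 1.90 and 0.823 with ADU-S100, 1.17, 0.667 and 0.248 with olaparib, 0.321, 0.443 and 0.474 with vehicle, and 0.288, 0.304 and 0.251 with the combination. The ratios of ADU-S100 tumors were thus above all vehicle and combination tumors, and overlapped those of the olaparib tumors. The genes closest to C3ar1 were Nlrp3, an inflammasome sensor (r = 0.949 over 12 tumors), Fcer1g, an Fc receptor signaling chain (r = 0.888), and Snai1 (r = 0.886). Ptprc, which marks all leukocytes, was 152 to 510 with vehicle, 287 to 1003 with ADU-S100, 193 to 456 with olaparib and 390 to 423 with the combination (r with C3ar1 = 0.853). C3ar1 also varied with the summed macrophage markers (r = 0.766, ranges above) and with the summed neutrophil markers (4 of 6 listed genes present, r = 0.627), which were 1008 to 2189 with vehicle, 1899 to 7696 with ADU-S100, 566 to 3353 with olaparib and 1545 to 1706 with the combination. The part of these cells in the C3ar1 values was not tested.

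**Figure D4:**
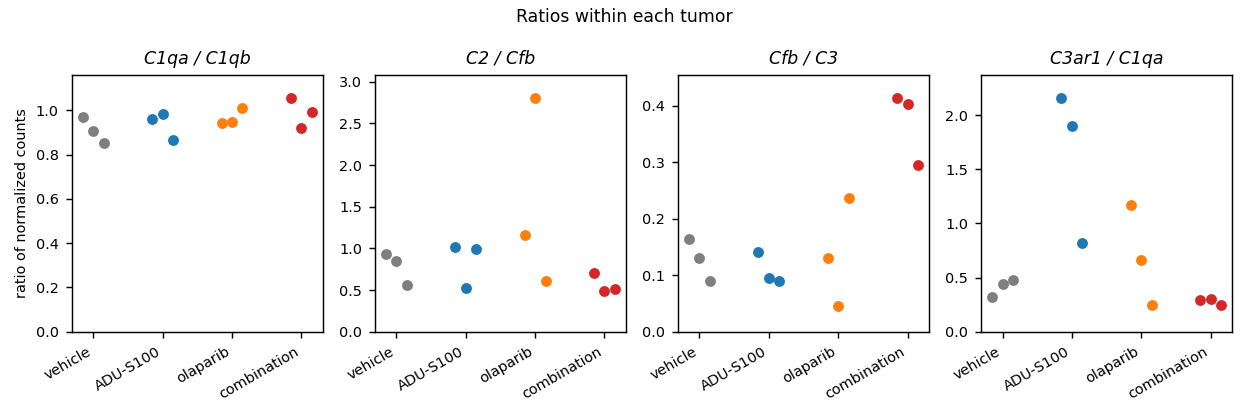
Ratios of normalized counts within each tumor (linear axes from 0), with 1 dot per tumor in 4 groups. C1qa over C1qb stays near 1, and Cfb over C3 is highest in the combination (0.295 to 0.414). C3ar1 over C1qa has its highest values with ADU-S100 (from 0.823), which overlap those with olaparib (up to 1.17).

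Taking classical against alternative genes, the mean log2 level of C1qa, C1qb, C1ra, C2 and C4b minus that of Cfb and Cfd was 1.52 ± 0.94 (SD, n = 3) with vehicle, 0.66 ± 0.78 with ADU-S100, 0.99 ± 1.41 with olaparib and 1.61 ± 1.40 with the combination. The lowest tumor of each group was the one with the highest Cfd, at 0.47, -0.17, -0.34 and 0.08, and the ranges of all 4 groups overlapped. With C3 counted as an alternative gene the means were 0.49 with vehicle, -0.26 with ADU-S100, -0.0006 with olaparib and 0.76 with the combination. Single tumors decided these means: that of ADU-S100 was 0.31 without tumor 1512 and 1.08 without 1506, that of olaparib 0.25 without 1521 and 1.65 without 1517, and that of the combination 0.998 without 1251 and 2.38 without 1270. Cfb and Cfd, the 2 alternative genes, correlated with r = 0.03, and the ratio of Cfd to Cfb ran from 0.0302 to 73.4 over the 12 tumors.

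None of the 9 genes and no other gene of the panel passed an adjusted p of 0.05 in any of 8 comparisons (limma, 0 of 689 genes, 0% of genes tested). Without olaparib tumor 1521, 55 genes passed for olaparib against vehicle, 54 for the combination against olaparib and 86 for the interaction, with 0 of the 9 among them. For the combination against vehicle, 1 of the 9 genes had an unadjusted p below 0.05 (Cfb, higher), beside 52 higher (7.55%) and 1 lower (0.145%) of all 689. Cfb was also the only 1 of the 9 whose combination and vehicle tumors did not overlap, beside 18.4% of all genes higher and 1.6% lower. For ADU-S100 against vehicle 1 of the 9 had such a p (C3ar1, higher; 4.64% of all genes) and 0 of the 9 did not overlap (13.9% higher and 1.02% lower of all genes). For olaparib against vehicle it was 0 of the 9 by either measure, beside 5.81% higher and 1.45% lower by p and 3.77% higher and 1.02% lower by overlap. The combination lay without overlap above ADU-S100 in 1 of the 9 (Cfb; 10.4% of all genes) and below it in C3ar1, and above olaparib in 2 of the 9 (C1qb and Cfb; 11% of all genes). Genes lower than olaparib without overlap made up 1.74% of the panel and included 0 of the 9. By unadjusted p, the 9 genes gave 0 calls above ADU-S100 (4.5% of all genes) and 1 below it (C3ar1; 4.64%), and 0 against olaparib (4.5% higher and 2.76% lower). The interaction gave 1 lower (C3ar1; 9% of all genes) and 0 higher (1.89%), and the differences averaged over the other agent gave 0 for ADU-S100 (3.05% higher) and 0 for olaparib (6.1% higher and 1.45% lower). Counts of 0 to 2 among 9 genes lie near these backgrounds.

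Between combination and vehicle, 6 of the 9 genes were higher and 3 lower, with a median of 0.39 on the log2 scale, beside 450 higher and 239 lower of 689 genes and a median of 0.21. With ADU-S100 the median was 0.54 against 0.44 for all genes, and with olaparib 0.53 against 0.45. The combination minus olaparib median was -0.12 against -0.15. For the combination minus ADU-S100 the median of the 9 genes was 0.58 (5 higher, 4 lower) while that of all genes was -0.22 (278 higher, 411 lower). Scaling to equal medians moved the median of all genes to 0.0313 with ADU-S100, 0.0997 with olaparib and 0.0094 with the combination. Averaged over the other agent, with 6 tumors against 6, ADU-S100 gave positive differences in 9 of 9 genes, beside 454 of 689 genes (65.9%), with a median of 0.23 (all genes 0.14). For C3, C1ra and Cfd among them the difference was only 0.02, 0.05 and 0.06. Olaparib gave positive differences in 6 of 9, beside 418 of 689 genes (60.7%), with a median of 0.16 (all genes 0.10). The lowest adjusted p of the 9 genes in these averaged comparisons was 0.637, for Cfb with olaparib (difference 0.82, SE 0.38, limma).

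**Figure D5:**
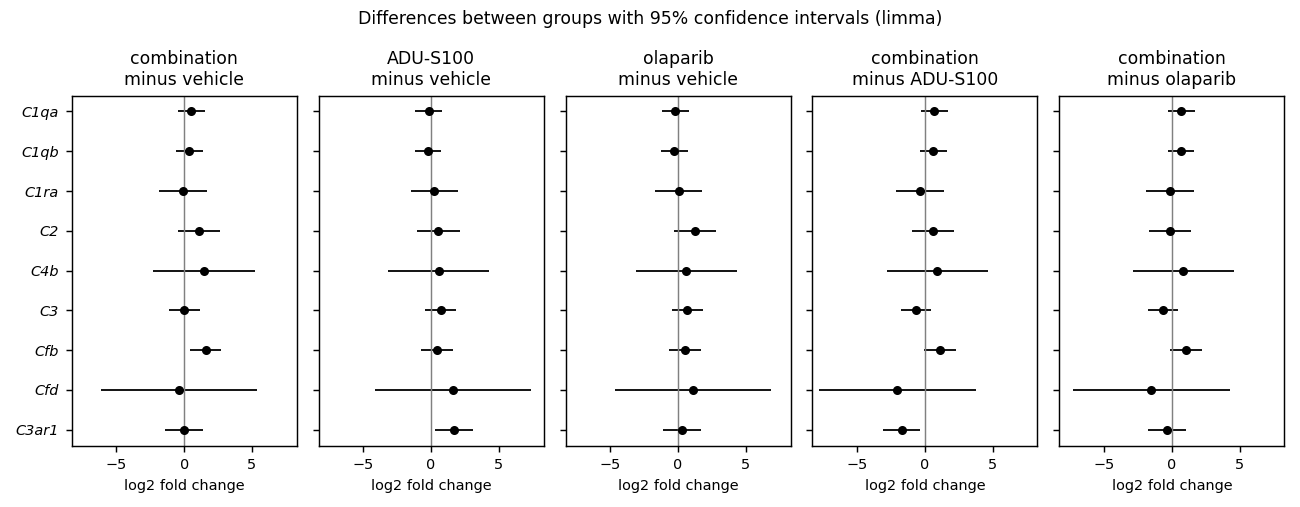
Log2 differences between groups for the 9 complement genes (points, limma over 12 tumors) with 95% confidence intervals (bars) in 5 pairwise comparisons. The intervals of Cfd and C4b are the widest, and those of Cfb (combination minus vehicle) and C3ar1 (the 2 comparisons with ADU-S100 on 1 side and vehicle or the combination on the other) leave out 0 before adjustment.

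Of the other complement genes, 26 were in the table and 20 passed the filter, of which 0 passed the adjusted threshold and 4 had an unadjusted p below 0.05 in some comparison, beside 180 of all 689 genes tested (26.1%). Among recognition molecules and proteases, 5 of 6 passed the filter. Colec12, a scavenger receptor with a collectin domain, had 133, 479 and 346 with vehicle and 27.3, 136 and 150 with olaparib, a difference of -1.75 (SE 0.66, limma, adjusted p = 0.577). C1qbp, a mostly mitochondrial C1q-binding protein, had an interaction of 1.34 (SE 0.60, limma, adjusted p = 0.436). Among receptors 4 of 5 passed the filter, and Itgax, the CD11c chain of complement receptor 4, had 83.9, 95.1 and 63.0 with vehicle and 222, 145 and 179.6 with the combination. These groups did not overlap, the only 1 of the 20 genes to be higher in this way (18.4% of all genes), and the difference was 1.16 (SE 0.37, limma, adjusted p = 0.347). Below ADU-S100 without overlap, the combination had 5 of the 20 (C9, Cfi, Cd59b, Masp2 and Serping1), beside 20.9% of all genes. C9, Cfi, Cd59b and Masp2 had at most 15, 35, 26 and 25 counts in any tumor. The value of 1 count was itself separate between these groups, at 1.43 to 2.85 with ADU-S100 and 0.810 to 0.824 with the combination. Its part in these separations was not tested. All 7 of the regulators that passed the filter (of 8 present, with Cfi, Cfp, Cd55 and Serping1 among them) had unadjusted p-values above 0.05 in every comparison.

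The terminal pathway forms the membrane pore, and its genes had few counts. Of 7 genes present (C6 to C9 and Hc, the mouse C5), 4 passed the filter. C8a, C8b and C9 had at most 10, 14 and 15 counts in any tumor and C7 at most 30, whereas the highest tumors had 42 for Hc, 75 for C6 and 80 for C8g. C9 had 3 to 15 counts per tumor, with normalized counts of 2.08 to 62.9, so its interaction of -3.94 (limma, adjusted p = 0.346, unadjusted p = 0.00217) rests on few counts. Against vehicle, C9 was higher by 2.17 with ADU-S100 (limma, adjusted p = 0.809, unadjusted p = 0.0102). It was higher by 2.18 with olaparib (limma, adjusted p = 0.577, unadjusted p = 0.00994) and by 0.42 with the combination (limma, adjusted p = 0.989). The part of the normalization factor in these values was not tested. Across the same tumors the counts behind C3 were never below 695.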

How the data were processed

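RNA of 12 tumors was measured on the nCounter panel. The table deposited by the authors holds a linear signal per gene, namely counts that nSolver had corrected for background and normalized with positive control probes and 8 housekeeping genes (their geometric mean). Per the methods, counts under the negative controls were discarded, yet the table holds values that correspond to as few as 0 counts. Control probes were not used here. Counts were estimated from the step between low values, and 99.866% or more of the values per tumor were whole multiples of it within 0.01 of a count. A separate check that looks for the step itself accepted only some of the tumors, so no count test was run. Values were tested as log2(normalized count + 1), so that changes of low genes are understated, with limma 3.58.1 in R 4.3.3 (1 mean per group, Benjamini-Hochberg over 689 genes, threshold 0.05, two-sided), after a check on simulated data. With 3 tumors against 3 an exact permutation test cannot go below 0.1, so groups are described by overlap. Python 3.11.15 with scipy 1.17.1 and matplotlib 3.10.9 gave the permutation tests and figures. Named genes were the 9 members, listed complement genes with an unadjusted p below 0.05, the 3 genes most like each member (1 is not reported here), and markers. The members and lists were chosen with earlier results of these data known. The labels number the tumors and do not say that each came from its own mouse, so p-values measure the spread between these tumors.

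Alternatives were another pseudocount (10), other filters and scalings, an intensity trend, the groups compared alone, the methods' test, covariates, background subtraction and leaving out each tumor.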

Additional observations from a re-analysis of the deposited data

How the results depend on the processing

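None of the 9 genes passed the adjusted threshold under any alternative run. Over all genes, the combination against vehicle gave 2 calls with only the groups compared, 3 with the methods' test after Benjamini-Hochberg adjustment (0 after the Benjamini-Yekutieli adjustment of the methods) and 4 with the value of 1 count as covariate, and the combination against ADU-S100 gave 1 call with a pseudocount of 10, a filter at 50, median scaling, quantile normalization or an intensity trend, in place of 0. Leaving out single tumors gave 0 to 55 calls for olaparib against vehicle, 0 to 54 for the combination against olaparib and 0 to 86 for the interaction, each highest without olaparib tumor 1521, and 0 to 1 for the combination against ADU-S100 (1 without tumor 1506). The cause was not tested.

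Some small differences between combination and vehicle changed sign. C1ra was 0.0028 and C3ar1 0.0158 with the value of 1 count as covariate, C3ar1 was 0.19 with the number series as a block, and C3 was -0.18 with median scaling and -0.28 with quantile normalization. Over left-out tumors C1ra ran from -0.68 to 0.42, C3 from -0.26 to 0.22, Cfd from -2.09 to 1.48 and C3ar1 from -0.47 to 0.28.

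Members without overlap numbered 2 lower for ADU-S100 against vehicle with median scaling. For the combination against ADU-S100 they numbered 3 higher with median scaling and 2 lower with median scaling or quantile normalization. For the combination against olaparib they numbered 0 higher with median scaling and 1 with quantile normalization, and 1 lower with either. Over left-out tumors they ran from 1 to 4 higher and 0 to 2 lower for the combination against vehicle, 0 to 3 higher for ADU-S100 against vehicle, 0 to 1 higher and 0 to 1 lower for olaparib against vehicle, 1 to 5 higher and 1 to 2 lower for the combination against ADU-S100, and 2 to 4 higher and 0 to 2 lower for the combination against olaparib.

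With C3 among the alternative genes the classical minus alternative mean was 0.49 with vehicle, -0.26 with ADU-S100, -0.0006 with olaparib and 0.76 with the combination. Over left-out tumors it ran from 1.15 to 2.05, 0.31 to 1.08, 0.25 to 1.65 and 0.998 to 2.38 in that order. The correlation of C2 and Cfb was 0.59 with median scaling and 0.52 with quantile normalization, that of C3 and Cfb was -0.14 and -0.51, and that of C1qa and C3ar1 was -0.19 with median scaling. The planned count test on recovered counts was not run, with either normalization, because a separate check of the steps accepted only some of the tumors. No paired analysis was possible because no single tumor number occurs in more than 1 group. The number series, whose meaning the labels do not give, was a block and not a pairing.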
